A study of Mus musculus with 8 samples.

Results

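The genes described here are 10 genes that mark or build the trophectoderm, the outer epithelium of the blastocyst from which the placenta arises. They are the transcription factor genes Tead4, Cdx2, Gata3, Tfap2c, Eomes, Elf5 and Hand1 and the keratin genes Krt8, Krt18 and Krt19. They were chosen by name and matched by symbol to the Ensembl gene identifiers in the count files, with earlier results of these data known. All 10 were found among 52550 listed genes, and all 10 were among the 20749 genes with enough counts to be tested. The study asked how loss of Dax1 (gene Nr0b1), an orphan nuclear receptor without a classical DNA-binding domain, changes gene expression in mouse embryonic stem cells (ESCs) in different states of pluripotency. Messenger RNA of control ESCs and of Dax1KO ESCs was sequenced from cultures in either of the media 2i/LIF and LIF/serum, as 4 groups of 2 libraries.

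In 2i/LIF, cells were kept in N2B27 with 1.0 µM of the MEK inhibitor PD0325901, 3.0 µM of the GSK3 inhibitor CHIR99021 and 10 ng/ml of the cytokine LIF. In LIF/serum, cells were kept in DMEM with 15% fetal bovine serum and 10 ng/ml of LIF. All cells were at passage 3 on gelatin, and the control groups carried no deletion of Dax1. The Dax1KO cells were 1 clone made with CRISPR/Cas9, so what belongs to the clone and what belongs to the loss of Dax1 cannot be told apart. In 2i/LIF, Nr0b1 had 456 and 300 counts in control libraries and none in Dax1KO libraries. Its counts in LIF/serum were 5095 and 4689 in control and 14 and 6 in Dax1KO libraries. Total counts ran from 35911384 to 37286251 per library. The ESC markers were expressed in every group, with a summed normalized count of their 9 genes between 183253 and 225118 in all 8 libraries. No source says whether the libraries of a group came from separate cultures, so P values measure only the spread between these libraries, which may be technical.

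As background, Tead4 is the DNA-binding partner of the Hippo pathway effectors Yap1 and Wwtr1 and acts at the top of the trophectoderm program, where Cdx2 and Gata3 are induced. Eomes, Elf5 and Tfap2c keep trophoblast stem cells in self-renewal together with Cdx2, and Hand1 drives the formation of trophoblast giant cells. Krt8 is a type II keratin that pairs with the type I keratins Krt18 and Krt19 to form the first intermediate filaments of the embryo. Most of these genes also act elsewhere: Eomes in the primitive streak, Hand1 in extraembryonic mesoderm and heart, Gata3 in lymphoid and epithelial cells, Tfap2c in germ cells, and the keratins in simple epithelia.

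Krt8 and Krt18, partners in 1 filament, are neighbours on chromosome 15. Krt8 lies on the minus strand at 101996698 to 102004482 and Krt18 on the plus strand at 102028180 to 102032027 (GRCm38), with 23697 bases between them, so that the genes are transcribed away from each other. Their promoters are shown because Krt18 was the gene on this list, other than Tead4, that rose in Dax1KO ESCs in both media, and Krt8 is its partner. The sequences are from RefSeq (GRCm38.p6), 250 bases before and 50 bases after the start, chr15:102004293-102004592 on the minus strand for Krt8 and chr15:102027966-102028265 on the plus strand for Krt18. Capitals mark matches to 5 motifs searched on both strands: GGAATG for TEAD factors, GCCNNNGGC for AP-2 factors, AGATAA for GATA factors, CAAGGTCA for NR5A and ESRR receptors, and TATAAA.
Krt8: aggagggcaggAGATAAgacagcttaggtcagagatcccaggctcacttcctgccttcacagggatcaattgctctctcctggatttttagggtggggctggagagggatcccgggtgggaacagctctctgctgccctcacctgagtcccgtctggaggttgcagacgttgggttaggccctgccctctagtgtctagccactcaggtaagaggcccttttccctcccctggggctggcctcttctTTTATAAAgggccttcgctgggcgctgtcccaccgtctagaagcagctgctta
Krt18: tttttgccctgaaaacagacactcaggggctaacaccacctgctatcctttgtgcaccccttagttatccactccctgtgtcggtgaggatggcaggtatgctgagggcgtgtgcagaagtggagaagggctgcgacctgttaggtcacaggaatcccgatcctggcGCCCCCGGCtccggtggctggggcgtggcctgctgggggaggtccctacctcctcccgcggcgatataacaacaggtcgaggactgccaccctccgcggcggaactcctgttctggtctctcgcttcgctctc
In the Krt8 promoter, the GATA letters began 239 bases before the start, and TATAAA matched on both strands in an overlap at the start itself, first base 3 bases before it on the minus strand and 1 base before it on the plus strand. In the Krt18 promoter, the capitals mark 1 AP-2 match that began 83 bases before the start. No TEAD or NR5A/ESRR match was found in either window. Of all 32851 promoters of the same length, 14.7% held the TEAD letters, 16.6% the AP-2 letters, 11.2% the GATA letters, 1.56% the NR5A/ESRR letters and 13.6% TATAAA. A match describes letters only and is not evidence of binding. The promoter table also held Cdx2, with 1 AP-2 match, Gata3, with 3 AP-2 matches, Elf5, with 1 TEAD match in 1 of its windows, and Eomes, with no match. Promoters of Hand1, Tead4, Krt19 and Tfap2c are not shown here. Counts were of whole genes. In the same build, Cdx2 on chromosome 5 at 147300805 to 147307270, Eomes on chromosome 9 at 118478212 to 118486132, Hand1 on chromosome 11 at 57828705 to 57832818 and Krt19 on chromosome 11 at 100140810 to 100148665 lie apart from each other, and Gata3 (9857078 to 9890034), Elf5 (103411688 to 103450989) and Tfap2c (172549593 to 172558622) are spread over chromosome 2.

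The genes stood at very different levels. As counts per kb of exon scaled by library size (RPKM), Tfap2c was the highest in control cells in 2i/LIF, at 20.1 ± 0.276 (SD, n = 2), followed by Tead4 at 10.1 ± 1.198, Krt8 at 9.54 ± 4.44, Krt18 at 6.60 ± 0.364 and Eomes at 4.63 ± 0.776. The libraries of Tead4 and Krt8 overlapped in this order, as did those of Krt8 and Krt18, whereas Krt18 and Eomes did not overlap. Hand1 at 1.54 ± 0.562, Krt19 at 1.30 ± 1.01 and Gata3 at 0.850 ± 0.0790 overlapped as neighbours. Elf5 stood at 0.0464 ± 0.0130, and Cdx2 had no count. In Dax1KO cells in LIF/serum the order began with the keratins. Krt18 stood at 30.7 ± 2.77 and Krt8 at 25.4 ± 5.47, with overlapping libraries, above Tead4 at 17.9 ± 0.225, Krt19 at 10.6 ± 2.75, Tfap2c at 6.28 ± 1.02, Hand1 at 5.05 ± 0.356 and Eomes at 4.09 ± 0.538. Gata3 at 0.238 ± 0.00320, Cdx2 at 0.134 ± 0.0758 and Elf5 at 0.0311 ± 0.0249 were the lowest.

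**Figure D1:**
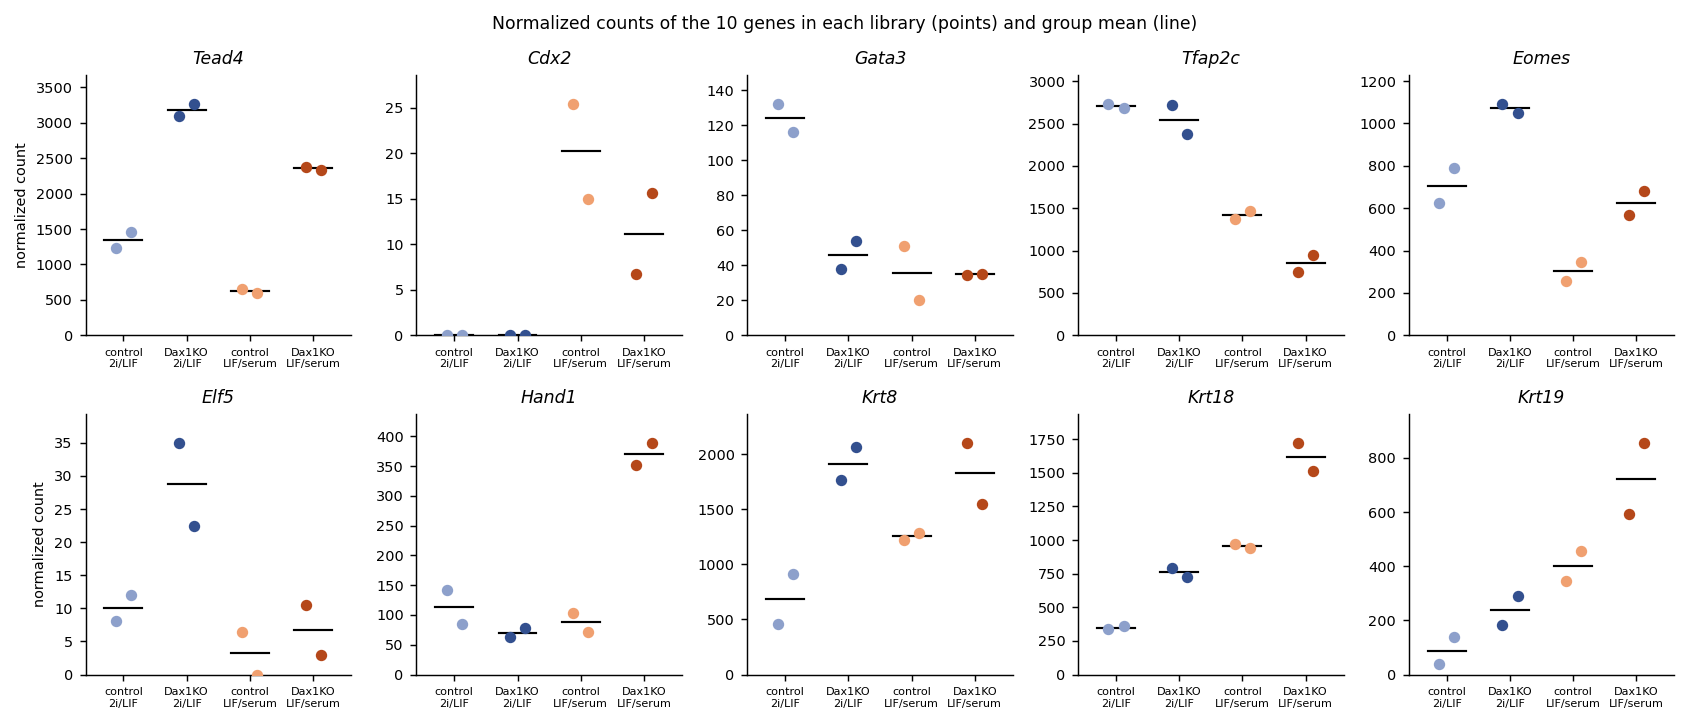
Normalized counts (y axis, linear from 0) of each gene in the 8 libraries, with 1 point per library and a black line at the mean of the 2 libraries of a group. Tead4, Eomes, Krt8, Krt18 and Krt19 had both Dax1KO libraries above both control libraries in each medium, Hand1 stood apart in Dax1KO cells in LIF/serum, and Cdx2 had counts in LIF/serum libraries alone.

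Dax1KO ESCs in 2i/LIF had more mRNA of Tead4, Krt8 and Krt18 than control ESCs, between 2.18 and 2.79 times the control level, and none of the 10 genes passed as lower. To pass, a gene needed a fold change of 1.2 or more with an adjusted P no higher than 0.05, and 3 of the 10 genes did so. Among all 20749 tested genes 3.16% passed, 1.51% as higher and 1.65% as lower. The median log2 fold change over the 9 genes with counts in this medium was 1.123, beside -0.01 over all tested genes. In a bulk sample, more cells of a kind and more mRNA per cell cannot be told apart.

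In LIF/serum, Dax1KO ESCs had more Tead4, Hand1, Eomes and Krt18 mRNA and less Tfap2c mRNA than control ESCs. These 5 genes passed, 4 higher and 1 lower, where 14.7% of all tested genes passed, 8.87% as higher and 5.78% as lower. The median log2 fold change over the 10 genes was 0.81, beside 0.01 over all tested genes. Tead4 and Krt18 passed in both media, in the same direction. Cdx2, Gata3, Elf5 and Krt19 passed in neither medium. Without the filter on low counts, Eomes and Tfap2c no longer passed in LIF/serum, nor did Tead4, Krt8 and Krt18 in 2i/LIF (edgeR test).

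**Figure D2:**
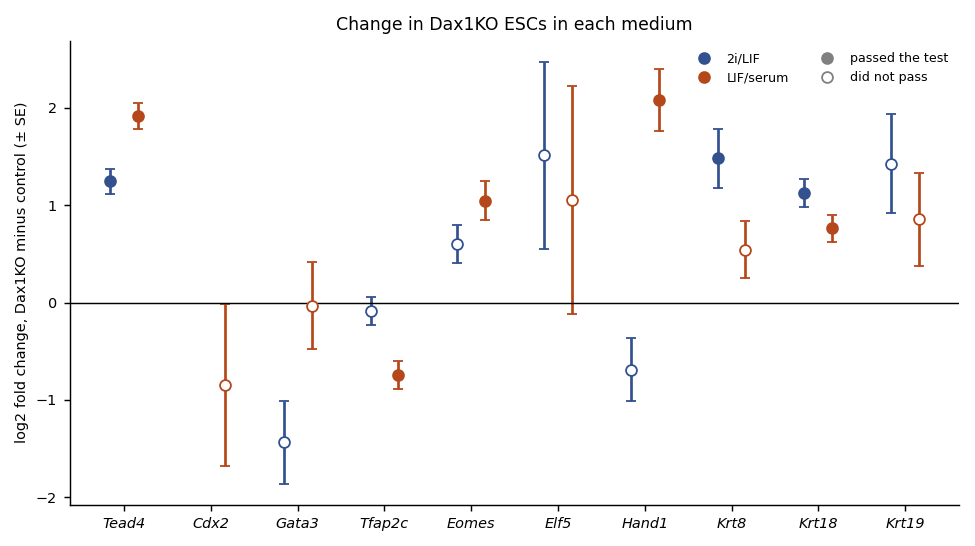
Log2 fold change of Dax1KO against control (y axis) for each gene in 2i/LIF (blue) and LIF/serum (orange), with bars of 1 SE from the fit and filled points for genes that passed. Cdx2 has no value in 2i/LIF because all 4 libraries had a count of 0. Hand1 lies at -0.69 in 2i/LIF and at 2.08 in LIF/serum.

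Tead4 had the smallest P value of the 10 genes in both media. Its normalized counts in 2i/LIF were 1229 and 1453 in control cells and 3094 and 3273 in Dax1KO cells. In LIF/serum they were 655 and 599 in control cells and 2383 and 2341 in Dax1KO cells. The Dax1KO libraries thus lay above all 4 control libraries whatever the medium. The log2 fold change was 1.25 (SE 0.13) in 2i/LIF, with an adjusted P of 0.00669, and 1.91 (SE 0.13) in LIF/serum, with an adjusted P of 0.000883 (edgeR quasi-likelihood test, Benjamini-Hochberg adjusted). The difference between these changes was 0.67 (SE 0.18), with an adjusted P of 0.0989 in the same edgeR test, and it passed in DESeq2 and at an unadjusted P under 0.05. Without either Dax1KO library in 2i/LIF in turn, the adjusted P of the 2i/LIF change was 0.0604 and 0.0684.

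Tead4 lies on chromosome 6 (128224288 to 128300823, minus strand), and genes of that chromosome were higher in the Dax1KO clone in general. The median log2 fold change of its 1054 tested genes was 0.44 in 2i/LIF and 0.52 in LIF/serum, beside -0.03 and -0.00 over the 19695 genes elsewhere. Tead4 was 0.80 above the chromosome 6 median in 2i/LIF and 1.40 above it in LIF/serum on the log2 scale. Of the 637 chromosome 6 genes with a mean count of at least 100, 31 had a larger log2 fold change than Tead4 in 2i/LIF and 21 in LIF/serum. The part of the chromosome-wide shift in the Tead4 change was not tested.

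Changes of the genes around Tead4 were uneven. Of 23 other tested genes whose nearest end lay within 500 kb, 17 had a log2 fold change above 0 in 2i/LIF, where their median was 0.50 and 5 passed, and 18 did in LIF/serum, where it was 0.41 and 6 passed. Over the whole of chromosome 6, 79.0% of the tested genes lay above 0 in 2i/LIF and 76.8% in LIF/serum. As higher, 9.87% and 28.3% of them passed, beside 1.51% and 8.87% of all tested genes. The shares of neighbours above 0 in both media, and the share that passed in LIF/serum, were near those of the chromosome. Tspan9, which encodes a tetraspanin and starts 157 kb away, had log2 fold changes of 1.41 (2i/LIF) and 1.62 (LIF/serum). Foxm1, a cell cycle transcription factor 62.1 kb to the other side, had 0.67 and 0.59. Both passed in both media, and so did 9330102E08Rik, Gm18609 and Gm10010, which start 100 to 117 kb from Tead4 on the side of Tspan9. The neighbour nearest to Tead4, Rpl18-ps2 at 12.5 kb, had values of -0.05 and -0.32 and did not pass. These 6 genes were named after their values were seen. Tead4 overlaps Gm21893 on the other strand, and no source says whether reads were counted by strand.

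**Figure D3:**
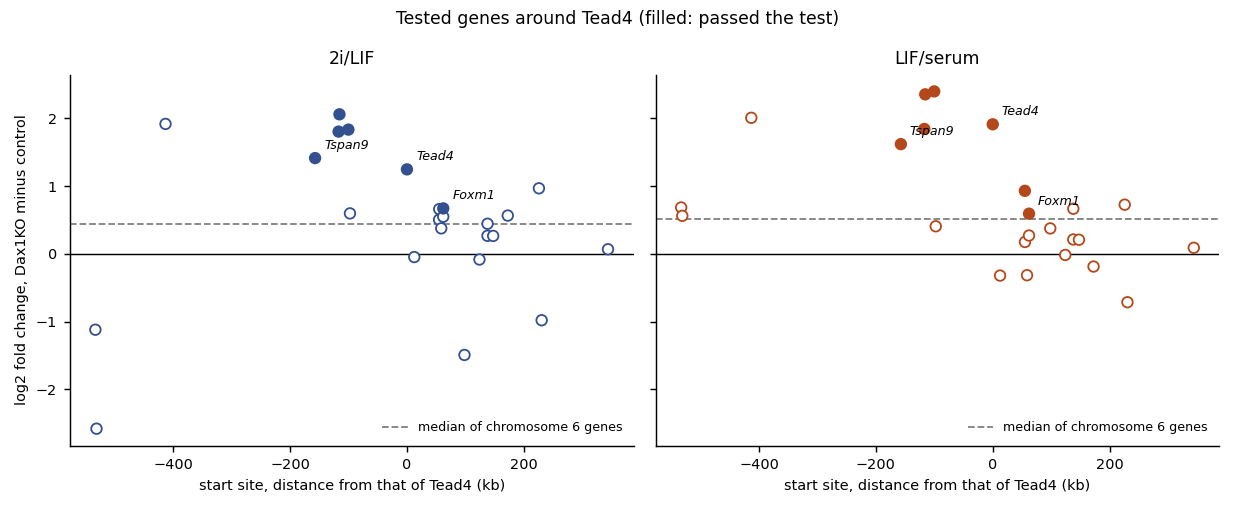
Log2 fold change of Dax1KO against control (y axis) for Tead4 and the 23 tested genes whose nearest end lay within 500 kb of it, by the distance between start sites in kb (x axis), with 2i/LIF on the left and LIF/serum on the right. Filled points passed the test, and the dashed line is the median of chromosome 6 genes, 0.44 and 0.52. The 4 neighbours that passed on the left of Tead4 lie above 1.4 in both media, and the genes on its right lie below 1.

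Cdx2 encodes the homeobox factor that defines trophectoderm, and its mRNA was not detected in 2i/LIF. All 4 libraries in 2i/LIF, control and Dax1KO, had a count of 0, which allows up to 3 counts per library by counting error. In LIF/serum, Cdx2 had 24 and 14 counts in control libraries and 7 and 16 in Dax1KO libraries, so the groups overlapped. The log2 fold change was -0.85 (SE 0.83), with an adjusted P of 0.544 by the edgeR quasi-likelihood test, and was -1.57 without Dax1KO replicate 2 in LIF/serum. Gata3, which acts in parallel to Cdx2, was also scarce. Its normalized counts in 2i/LIF were 132 and 116 in control cells and 37.9 and 53.8 in Dax1KO cells, a log2 fold change of -1.44 (SE 0.42) whose adjusted P was 0.123 in the edgeR test. In LIF/serum they were 50.9 and 20.3 in control cells and 34.4 and 35.1 in Dax1KO cells, with a log2 fold change of -0.03 (SE 0.44). The Gata3 groups were thus apart in 2i/LIF and nested in LIF/serum, and neither change passed. Gata3 overlaps 9230102O04Rik on its own strand and Gm13256 and 4930412O13Rik on the other.

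Eomes, a T-box factor of trophoblast stem cells and of the primitive streak, was higher in Dax1KO cells in both media but passed in LIF/serum alone. Its normalized counts in LIF/serum were 258 and 347 in control cells and 566 and 683 in Dax1KO cells, a log2 fold change of 1.05 (SE 0.20) with an adjusted P of 0.0156 in the edgeR test. In 2i/LIF they were 623 and 790 against 1094 and 1050, a log2 fold change of 0.60 (SE 0.20) with an adjusted P of 0.162. Control and Dax1KO libraries did not overlap in either medium. The difference between the media, 0.45 (SE 0.28), had an adjusted P of 0.451 by the edgeR quasi-likelihood test, so the change was not shown to differ. Without control replicate 1 or Dax1KO replicate 2 in LIF/serum, the log2 fold change was 0.85 or 0.91 and the adjusted P 0.0599 or 0.0972. Gm33460 overlaps Eomes on the other strand.

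Elf5, an ETS factor that marks trophoblast commitment, did not pass in either medium. It had 8 and 12 counts in control libraries and 36 and 23 in Dax1KO libraries in 2i/LIF, and 6 and 0 against 11 and 3 in LIF/serum. The adjusted P values were 0.484 and 0.590 in the edgeR test.

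Tfap2c, the AP-2 factor shared by trophoblast and germ cells, was the only gene of the 10 to pass as lower in Dax1KO cells. In LIF/serum its normalized counts were 1369 and 1473 in control cells and 751 and 947 in Dax1KO cells. Both Dax1KO libraries lay below both control libraries, and the log2 fold change was -0.74 (SE 0.15), with an adjusted P of 0.0162 (edgeR quasi-likelihood test, Benjamini-Hochberg adjusted). In 2i/LIF the normalized counts of 2737 and 2685 in control cells and 2720 and 2374 in Dax1KO cells overlapped, with a log2 fold change of -0.09 (SE 0.14). The difference between media, -0.65 (SE 0.21), had an adjusted P of 0.138 by the same edgeR test. Without control replicate 2 or Dax1KO replicate 1 in LIF/serum, the adjusted P was 0.0597 or 0.0811, and it also missed the threshold when only the 4 LIF/serum libraries were fitted.

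Hand1, a basic helix-loop-helix factor of giant cells and extraembryonic mesoderm, had the largest increase of the 10 genes in LIF/serum, though not apart from Tead4. With 1 library left out in turn, its log2 fold change there fell as low as 1.82, and that of Tead4 stayed between 1.84 and 1.98. The normalized counts of Hand1 in LIF/serum were 104 and 71.5 in control cells and 352 and 389 in Dax1KO cells. In 2i/LIF they were 142 and 84.0 in control cells and 62.2 and 78.2 in Dax1KO cells. The Dax1KO libraries in LIF/serum stood apart from all the other libraries, which lay at 142 or below. The log2 fold change was 2.08 (SE 0.32) in LIF/serum, with an adjusted P of 0.00729, and -0.69 (SE 0.32) in 2i/LIF, with an adjusted P of 0.314 (edgeR quasi-likelihood test, Benjamini-Hochberg adjusted). Hand1 was the single gene of the 10 whose change differed between the media, by 2.77 (SE 0.45) with an adjusted P of 0.0258 in the edgeR test, and 2.87% of all tested genes passed this test. With each library left out in turn, the difference lay between 2.34 and 3.07 and its adjusted P was above 0.05 in 6 of 8 cases, at 0.0608 to 0.115, the exceptions being control replicate 2 in 2i/LIF and control replicate 1 in LIF/serum.

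Markers of primitive endoderm, the other extraembryonic lineage, were higher in the Dax1KO libraries in LIF/serum, where Hand1 and Eomes also passed as higher. Of 11 such genes, 7 passed as higher in Dax1KO cells in LIF/serum and none as lower, and 1 passed as higher in 2i/LIF, beside 8.87% of all tested genes that passed as higher in LIF/serum and 1.51% in 2i/LIF. Their summed normalized count was 27624 to 47800 in control and 81201 to 109548 in Dax1KO libraries in LIF/serum, beside 12318 to 13141 and 12082 to 14352 in 2i/LIF. Every marker of this list was above 3 counts in both libraries of every group. The genes with the largest changes were Col4a1 and Col4a2, basement membrane collagens, at 1.79 and 1.498, Dab2, an endocytic adaptor, at 1.63, and Sox17, an endoderm factor, at 1.62 on the log2 scale in LIF/serum. Of 10 tested primitive streak and mesoderm markers, 2 passed as higher in LIF/serum and 1 in 2i/LIF, to be read against the same shares, with medians of 0.43 and -0.46. Cdx1, a relative of Cdx2, rose by 2.39 in 2i/LIF and 1.90 in LIF/serum, and Snai1 by 0.69 in LIF/serum. The part of such cells in the Hand1 and Eomes changes was not tested.

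Krt8 rose in 2i/LIF. Its normalized counts were 460 and 912 in control cells and 1764 and 2062 in Dax1KO cells in 2i/LIF, and 1222 and 1283 in control cells and 2103 and 1546 in Dax1KO cells in LIF/serum. Dax1KO libraries lay above control libraries in each medium, and the 2 control libraries in 2i/LIF differed from each other by the largest ratio. The log2 fold change was 1.48 (SE 0.30) in 2i/LIF, with an adjusted P of 0.0438, and 0.54 (SE 0.29) in LIF/serum, with an adjusted P of 0.254 (edgeR quasi-likelihood test, Benjamini-Hochberg adjusted). The difference of -0.94 (SE 0.42) had an adjusted P of 0.272 in that test, so the media were not shown to differ, and was -1.54 without control replicate 2 in 2i/LIF. The call in 2i/LIF was lost in 7 of 8 fits that left out 1 library, with adjusted P values from 0.0652 to 0.219, and held without control replicate 2 in 2i/LIF, where the log2 fold change was 2.07. It was also lost with only the 4 libraries in 2i/LIF fitted, with the replicate number as a block and without the filter on low counts.

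Krt18 rose in both media with little spread. Its normalized counts were 335 and 362 in control cells and 791 and 727 in Dax1KO cells in 2i/LIF, and 971 and 938 in control cells and 1723 and 1516 in Dax1KO cells in LIF/serum. The groups did not overlap, and the order from lowest to highest was control in 2i/LIF, Dax1KO in 2i/LIF, control in LIF/serum and Dax1KO in LIF/serum. The log2 fold change was 1.123 (SE 0.14) in 2i/LIF, with an adjusted P of 0.0107, and 0.76 (SE 0.14) in LIF/serum, with an adjusted P of 0.0119 by the edgeR quasi-likelihood test. The adjusted P was above 0.05 with any 1 of the 4 libraries in 2i/LIF left out for that medium, at 0.0517 to 0.0962, and without control replicate 2 or Dax1KO replicate 1 for LIF/serum, at 0.0526 and 0.0692.

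Krt19, the keratin without a tail domain, had the same order of group means as Krt18 with far more spread. Its normalized counts were 40.1 and 137 in control cells and 185 and 291 in Dax1KO cells in 2i/LIF, and 345 and 457 against 591 and 856 in LIF/serum. The log2 fold changes of 1.42 (SE 0.51) and 0.85 (SE 0.48) had adjusted P values of 0.190 and 0.268 in the edgeR test, and the 2i/LIF change passed in DESeq2. The 2i/LIF change moved with the control library left out, to 2.58 without control replicate 2 and to 0.80 without control replicate 1 in that medium.

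Type II and type I keratins pair in equal amounts. The ratio of Krt8 to Krt18 mRNA did not overlap between the media, but only by a narrow margin. Its nearest libraries, both control, stood at 1.009 in 2i/LIF and 1.004 in LIF/serum. Per length, the ratio of Krt8 to Krt18 was 1.01 and 1.85 in control and 1.64 and 2.08 in Dax1KO libraries in 2i/LIF, and 0.924 and 1.00 in control and 0.896 and 0.749 in Dax1KO libraries in LIF/serum. With Krt19 added to Krt18, the ratio of their sum to Krt8 was 0.630 to 1.08 in 2i/LIF and 1.37 to 1.92 in LIF/serum. Other keratins with counts, such as Krt17 and Krt42, were left out of it. No test was run on these ratios. No other gene matched a member over most of its transcript at 95% identity. The pseudogene Krt8-ps matched 48.1% of the Krt8 transcript and had at most 31 counts in a library, and Gm36026 overlaps Krt8 on the other strand.

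Across the keratin family, 15 of 49 protein-coding genes were tested and 16 had no count in any library. In 2i/LIF 3 of the 15 rose, Krt8, Krt18 and Krt17, and in LIF/serum 1 did, Krt18, and none fell in either medium, beside 1.51% and 8.87% of all tested genes that passed as higher. The LIF/serum share is near that background. The median log2 fold change was 1.18 over the 14 with counts in 2i/LIF and 0.35 over 15 in LIF/serum. Without Krt8, Krt18 and Krt19 the medians were 1.10 over 11 genes and -0.43 over 12. Krt17, a keratin of stratified and injured epithelium on the same chromosome as Krt19, had counts of 60 and 147 in control and 315 and 539 in Dax1KO libraries in 2i/LIF. Control libraries in LIF/serum had 772 and 901 counts, and the Dax1KO libraries beside them had 371 and 390. It was higher in Dax1KO cells in 2i/LIF by 2.01 (SE 0.41, adjusted P 0.0438), and its log2 fold change in LIF/serum was -1.28 (SE 0.39, adjusted P 0.0629, edgeR quasi-likelihood test). The difference of -3.28 (SE 0.56) had an adjusted P of 0.0299 in the same edgeR test. Whether Krt17 shares reads with related keratins was not tested.

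**Figure D4:**
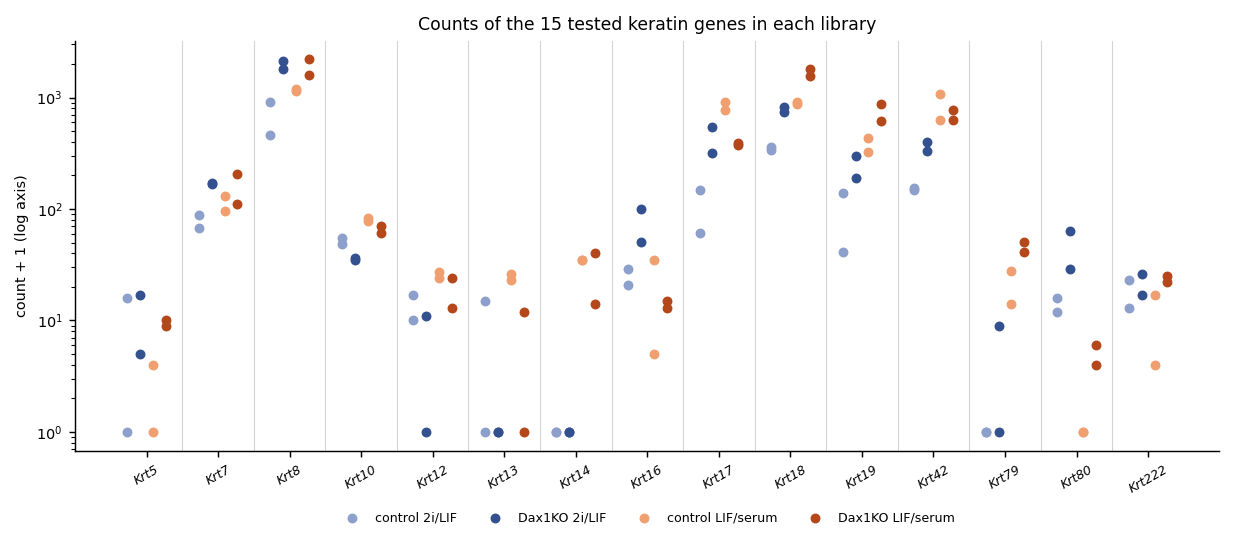
Counts of the 15 tested keratin genes in each library, plotted as count + 1 on a log axis, with 1 point per library and colours for the 4 groups. Krt8 and Krt18 are the highest in most libraries, Krt17 is lower in Dax1KO than in control libraries in LIF/serum and higher in 2i/LIF, and several genes stand at 1, which is a count of 0.

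More of these genes differed between the media than between Dax1KO and control cells, and the same held for all tested genes. Against control, Dax1KO cells differed in 3.16% (2i/LIF) and 14.7% (LIF/serum) of all tested genes, and in 3 and 5 of these 10. The order is thus not particular to the 10 genes. In control cells, 7 of the 10 genes differed between the media, 4 higher and 3 lower in 2i/LIF. Of all tested genes 36.8% did, 20.3% as higher and 16.5% as lower. Tead4, Eomes, Gata3 and Tfap2c were higher in 2i/LIF, by log2 fold changes of 1.10 (SE 0.13), 1.23 (SE 0.20), 1.80 (SE 0.43) and 0.93 (SE 0.15). Krt18, Krt19 and Cdx2 were lower in 2i/LIF, the first by -1.45 (SE 0.14) and the second by -2.18 (SE 0.51). Cdx2 was about 6.72-fold lower or more, with its 0 counts in 2i/LIF set to 3 per library. This limit takes counts as independent fragments and the LIF/serum mean as free of error. The adjusted P values of these 7 genes ran from 0.000216 to 0.0135 (edgeR quasi-likelihood test, Benjamini-Hochberg adjusted). Krt8 missed the threshold, at -0.87 (SE 0.30) with an adjusted P of 0.0514 in the edgeR test, and passed in DESeq2, with RLE factors, with counts divided by 3 and without control replicate 2 in 2i/LIF, where the value was -1.49. Gata3 no longer passed without control replicate 1 in 2i/LIF, Krt19 without control replicate 2 in LIF/serum, and Cdx2 without control replicate 2 in 2i/LIF or control replicate 1 in LIF/serum, with adjusted P values of 0.0506 to 0.0593 in the edgeR test. Without control replicate 2 in 2i/LIF the Krt19 difference was -3.36, without control replicate 1 in 2i/LIF it was -1.54, and without control replicate 1 in LIF/serum that of Gata3 was 2.61. The Krt19 and Gata3 calls were also lost without the filter on low counts, and with counts divided by 3 Cdx2 fell below that filter and was not tested. Of the genes that passed, the regulators other than Cdx2 were thus higher in 2i/LIF and both keratins were lower.

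In Dax1KO cells 7 of the 10 genes also differed between the media, 3 higher and 4 lower in 2i/LIF, where 28.9% of all tested genes did, 15.2% as higher and 13.7% as lower. Tfap2c, Eomes and Tead4 were higher in 2i/LIF, by 1.59 (SE 0.15), 0.78 (SE 0.20) and 0.43 (SE 0.13). Hand1, Krt19, Krt18 and Cdx2 were lower, with log2 fold changes of -2.40 (SE 0.32), -1.60 (SE 0.49) and -1.09 (SE 0.14) for the first 3, and Cdx2 had 0 counts in both 2i/LIF libraries against 7 and 16 in LIF/serum. The adjusted P values ran from 0.000248 to 0.0406 in the edgeR test. Gata3 at 0.40 (SE 0.44) and Krt8 at 0.07 (SE 0.29) did not pass. Each comparison of media shares its libraries with the comparisons of Dax1KO and control cells. With each of the 4 Dax1KO libraries left out in turn, Hand1, Krt18 and Tfap2c passed each time, and the calls of Eomes, Tead4, Krt19 and Cdx2 were lost. Without either control library in LIF/serum, those of Krt19 and Cdx2 were lost. The adjusted P values of the lost calls ran from 0.0521 to 0.211 in the edgeR test. The Cdx2 call was also lost with the replicate number as a block and without the filter on low counts, as were those of Eomes, Tead4 and Krt19 without the filter. With counts divided by 3, or with only the 4 Dax1KO libraries, Cdx2 fell below the filter and was not tested.

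The partners of Tead4 and the relatives of the AP-2 and GATA members were read from lists chosen by name. Of 10 TEAD and Hippo pathway genes, none passed in 2i/LIF, and in LIF/serum 3 rose and 1 fell, beside 3.16% and 14.7% of all tested genes that passed in either direction. Amot, an inhibitor of Yap1, rose by 1.29, Vgll4, a competitor of Yap1 that also lies on chromosome 6, by 0.87, and Wwtr1, a coactivator, by 0.50, and Nf2, an upstream regulator, fell by 0.47 on the log2 scale. The medians of the list were 0.00 in 2i/LIF and 0.23 in LIF/serum. Of 4 tested AP-2 and hematopoietic GATA genes, 1 rose in 2i/LIF and 2 in LIF/serum. Of all tested genes, 1.51% and 8.87% passed as higher in these media. Gata2, on chromosome 6, rose by 1.87 in 2i/LIF and had a log2 fold change of 0.01 in LIF/serum, and Tfap2a and Gata1 rose by 1.55 and 1.45 in LIF/serum with -0.82 and -0.11 in 2i/LIF. The list had medians of -0.46 and 0.73.

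Of 11 other genes of the early trophoblast, 4 rose and 1 fell in 2i/LIF, and 1 rose in LIF/serum, with medians of 0.10 and 0.14. Of all tested genes, 1.51% passed as higher and 1.65% as lower in 2i/LIF, and 8.87% passed as higher in LIF/serum, a share that 1 of 11 genes is near. Rhox6 and Rhox9, X-linked homeobox genes of the placenta, rose by 2.13 and 2.00 in 2i/LIF and had log2 fold changes of -0.02 and -0.28 in LIF/serum, and the difference between media had an adjusted P of 0.0909 and 0.0756 in the edgeR test. Plet1, a surface protein of trophoblast progenitors, rose by 1.98 in 2i/LIF and 1.69 in LIF/serum, and Wnt7b rose by 1.27 in 2i/LIF. Cdh3, which encodes P-cadherin and is named because it was the 1 gene that fell, had -1.01 in 2i/LIF. Genes of differentiated trophoblast had few or no counts, apart from Syna and Dlx3, which reached 87 and 98 counts in a library. Of 10 such genes, 6 (Tpbpa, Synb, Prl3b1, Prl2c2, Ctsq and Hsd3b6) had 0 counts in every library, 3 were tested and none passed, with median log2 fold changes of 0.48 (2i/LIF) and 0.26 (LIF/serum). Their summed normalized count stayed between 39.1 and 189.

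Epithelial junction and transport genes, which accompany keratins in simple epithelia, rose in part. Of 13 genes, 4 rose in 2i/LIF and 3 in LIF/serum and none fell, with medians of 0.53 and 0.36, beside 1.51% and 8.87% of all tested genes that passed as higher. Cldn7, a tight junction claudin, rose by 1.54 and 1.71 and Aqp3, an aquaporin, by 1.06 and 1.74 in 2i/LIF and LIF/serum. Dsc2, a desmosomal cadherin, rose by 1.81 in 2i/LIF, and Tspan8 by 1.72 in LIF/serum. Of 9 ESC markers 1 rose, Klf4 by 0.79 in LIF/serum, and the medians were -0.16 and 0.03. Of 5 primordial germ cell markers, a lineage that also expresses Tfap2c, 1 fell in 2i/LIF (median -0.28) and 2 fell in LIF/serum (median -0.83), beside 1.65% and 5.78% of all tested genes that passed as lower. Prdm14 fell by 0.86 in 2i/LIF, and Nanos3 and Prdm1 fell by 1.62 and 0.83 in LIF/serum. Of the 5 tested fibroblast markers 1 fell in 2i/LIF and 2 rose in LIF/serum, with medians of 1.35 over 5 genes and 1.63 over the 3 with counts. Thy1, a surface glycoprotein, fell by 0.85 in 2i/LIF and rose by 1.63 in LIF/serum, and Col1a1 rose by 2.13 in LIF/serum. The highest count in any library was 3 for Dcn, 4 for Col3a1, 38 for Postn, 55 for Col1a2 and 71 for Lum. The summed normalized count of the 7 fibroblast markers was 1873 to 2363 in control and 1263 to 1348 in Dax1KO libraries in 2i/LIF, and 458 to 486 against 1434 to 1498 in LIF/serum. Thy1 made up most of this sum, with means of 1957 in control and 1089 in Dax1KO cells in 2i/LIF. Its means in LIF/serum were 411 and 1269. The part of cells of these kinds in the changes of the 10 genes was not tested.

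**Figure D5:**
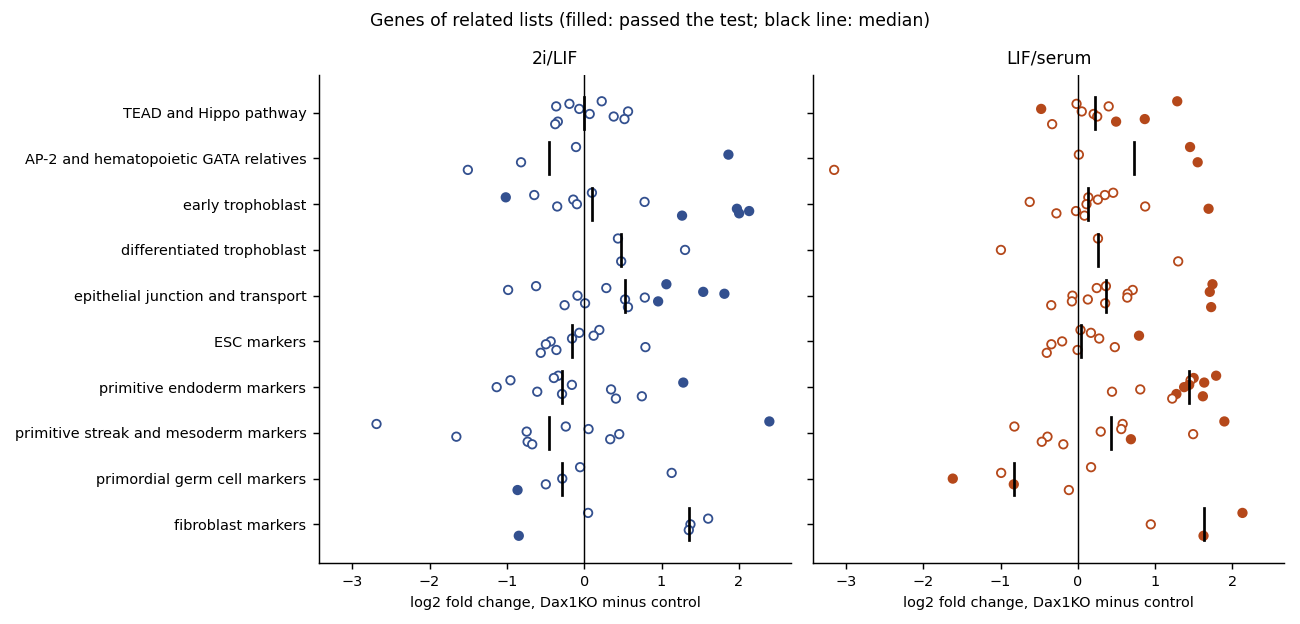
Log2 fold change of Dax1KO against control (x axis) for each gene of 10 related lists, with 2i/LIF on the left, LIF/serum on the right, filled points for genes that passed and a black line at the median of a list. Genes with a count of 0 in all 4 libraries of a medium are left out. The primitive endoderm markers all lie above 0 in LIF/serum, with a median of 1.44, and lie on both sides of 0 in 2i/LIF, with a median of -0.29.

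The genes whose pattern over the 8 libraries was most like that of a member were taken by the Pearson correlation of log2 normalized counts, as a description of libraries that fall into 4 groups. For Tead4 they were C2cd5 (r = 0.997), Vgll4 (r = 0.993) and Plekha8 (r = 0.993). Vgll4, like Tead4, lies on chromosome 6, whose genes were higher in the Dax1KO clone in general. For Eomes they were Tmem30b (r = 0.999), Sgsm1 and Ret (r = 0.994 for each), and for Tfap2c Hace1 (r = 0.992), Gm40968 (r = 0.992) and Gstm2 (r = 0.990). For Hand1 they were Sgsm3 (r = 0.984), Vwa7 (r = 0.982) and Sparc (r = 0.974), a matrix protein abundant in endoderm. For Krt18 they were Rab1b (r = 0.996), Snx2 (r = 0.994) and Fam83g (r = 0.993), for Krt8 Gm20544 (r = 0.993), Gm27196 (r = 0.990) and Best1 (r = 0.964), and for Krt19 Saysd1 (r = 0.996), Podnl1 (r = 0.985) and Snora7a (r = 0.981). No member was among the 3 nearest genes of another. Between the 7 members compared, the highest values were r = 0.916 for Krt18 and Krt19, 0.887 for Tead4 and Eomes, 0.790 for Krt8 and Krt19 and 0.768 for Krt8 and Krt18, and the lowest were -0.883, -0.813 and -0.775 for Tfap2c with Krt18, Krt19 and Hand1. Among 20748 genes, Eomes stood at place 492 for Tead4 and Krt8 at place 1507 for Krt18. Krt18 stood at place 384 for Krt8 and 131 for Krt19, and Krt19 at place 229 for Krt18. In each case many other genes were nearer than the member.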

How the data were processed

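Each library was deposited as whole-number counts per versioned Ensembl gene, which the authors did not normalize. The submitters' processing notes name HISAT2 2.0.4, DESeq2 and mm10 with no role. The counting method, its annotation and any use of strand are not given in the sources used here. Groups came from the sample descriptions. Of 52550 identifiers, 52403 were found in GENCODE M21 (GRCm38), which gave symbols, coordinates and exon lengths. Every listed identifier names a gene. Total counts ran from 35911384 to 37286251 per library, so a log2 fold change between groups of 2 is limited by the spread between libraries more than by depth, except at low counts. Counts of 3 and 6 were more frequent than their neighbours (1348 to 1587 values of 3 per library beside 823 to 940 of 2 and 469 to 515 of 4), so low counts need not be independent fragments, and limits from counts cover counting error only.

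The tests used edgeR 4.0.16 under R 4.3.3. After filterByExpr, 20749 genes remained. TMM factors scaled the libraries, and the quasi-likelihood fit took all 8 libraries with the 4 group means as its terms. P values were adjusted over all tested genes by the Benjamini-Hochberg method. Genes passed with a fold change of 1.2 or more at an adjusted P no higher than 0.05, and differences between media with the adjusted P alone. The SE is the absolute log2 fold change divided by the square root of F. Normalized counts are scaled to the mean library size. In each list up to 4 genes that passed in a Dax1KO comparison were named by size of change, with any others named as such. For likeness, the 3 nearest genes were taken for each member with a mean count of at least 100. The members and lists were chosen with earlier results of these data known, and 1 list is not reported here. Transcripts were compared with blastn 2.17.0. The steps were tested on simulated data. Alternatives were DESeq2 1.42.0, RLE factors, no filter on low counts, the replicate number as a block, only the 4 libraries of a comparison, no chromosome 6 genes, counts divided by 3, other thresholds and each library left out in turn.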

Additional observations from a re-analysis of the deposited data

Results flagged for a closer look

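The change of Hand1 in Dax1KO ESCs differed between the media by 2.77 on the log2 scale (2.08 in LIF/serum minus -0.69 in 2i/LIF), as tested by the interaction of cell line and medium. Both Dax1KO libraries were above both control libraries in LIF/serum and below both in 2i/LIF. The 2i/LIF change did not pass, with nearest normalized counts of 84.0 in control and 78.2 in Dax1KO cells. The difference between media did not pass without the filter on low counts. No group had enough libraries for a search for outlying libraries.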

How the results depend on the processing

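Of 693 values of single genes under the alternatives, 612 kept their direction and their side of the threshold, 65 no longer passed, 6 newly passed and 10 changed sign. Without a filter on low counts, which raised the tested genes to 52550, 0 of the 10 genes passed in 2i/LIF, 3 in LIF/serum, 0 for the difference between media, 3 between media in Dax1KO cells and 5 in control cells, and calls over all genes fell from 656 to 16 in 2i/LIF and from 3041 to 1083 in LIF/serum. With a 2-fold threshold, 3 genes passed in LIF/serum. For the difference between media, 2 genes passed with DESeq2 and 3 at an unadjusted P under 0.05. DESeq2 called 1455 genes in all in 2i/LIF and 1510 for the difference, beside 656 and 596 with edgeR, and with only the 4 LIF/serum libraries 1743 genes were called in place of 3041. With 1 library left out in turn, 0 to 2 genes passed in 2i/LIF, 3 to 5 in LIF/serum, 0 to 1 for the difference, 3 to 7 between media in Dax1KO cells and 6 to 7 in control cells. A group then held a single library that was assumed to vary like the others. Without Dax1KO replicate 1 or 2 in 2i/LIF no gene passed in that medium, and 1 did without control replicate 1. In LIF/serum 3 passed without control replicate 2 or Dax1KO replicate 1. The cause of these changes was not tested.

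The log2 values that changed sign with a library left out did not pass to begin with. They were the difference between media for Krt19 (-1.74 to 0.060) and Elf5 (-1.63 to 4.28), the Dax1KO change of Gata3 (-0.56 to 0.78) and Elf5 (-0.12 to 5.79) in LIF/serum and of Tfap2c in 2i/LIF (-0.19 to 0.0053), and the difference of 2i/LIF from LIF/serum for Hand1 in control cells (-0.057 to 0.66) and Krt8 in Dax1KO cells (-0.14 to 0.31).

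Libraries with the same replicate number deviated together weakly, with correlations of 0.080 among the 2i/LIF and 0.108 among the LIF/serum libraries over the tested genes, so the numbers were not taken as pairs. With the replicate number as a block, 2 of the 10 genes passed in 2i/LIF, 5 in LIF/serum, 1 for the difference, and 6 and 7 between media in Dax1KO and control cells, Krt8 no longer passed in 2i/LIF and the Gata3 change in LIF/serum was 0.0023. The block gave 573 and 3218 calls over all genes in 2i/LIF and LIF/serum. Cdx2 and Elf5 had few counts, and with 2 libraries in a group a gene that did not pass was not shown to be unchanged.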
